A study of Mus musculus with 2 samples.

Results

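T cells with early activation genes were picked out of 2 single-cell RNA libraries of mouse lymph node immune cells by a rule on their own counts. A cell counted as a T cell when it held at least 1 unique molecular identifier (UMI, 1 captured RNA molecule) of Cd3d, Cd3e or Cd3g, none of Cd79a or Foxp3, at most 1 of Cxcr5, Pdcd1, Tox2 and Il21 together and at most 1 of Xcl1, Lag3 and Tyrobp together. It was selected when Nr4a1, Egr1, Egr2, Tnfrsf9 and Ccl4 together reached 3 UMIs. This gave 19 of 1172 such T cells in the allogeneic library and 103 of 4360 in the syngeneic library, 122 selected cells (members, in the plots) of 5532 such T cells and of 10063 cells in all that passed the cell filter. They are compared in each library with the T cells whose sum of the 5 genes was 0, which were 1074 allogeneic and 3842 syngeneic cells.

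The allogeneic library came from Balb/c recipients of a C57BL/6 heart graft, and the syngeneic library from Balb/c recipients of a Balb/c heart. All mice were 6 to 8 weeks old, and the time after grafting and the number of mice behind each library are not given in the sources used here. Each graft type had 1 library, so the differences below have no replicate check and carry no test. Intervals are at 95%, exact, and cover counting error only. The allogeneic library held 8415043 UMIs over 3500 barcodes and the syngeneic library 46486632 UMIs over 7967 barcodes, whose lowest barcodes held 150 and 3447 UMIs. Of all barcodes 66 occurred in both libraries, and 0 of those were selected cells.

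Egr1 and Egr2 are zinc finger transcription factors, and Nr4a1 (Nur77) an orphan nuclear receptor, whose genes are switched on soon after the T cell receptor signals through the MAP kinase and calcium pathways. Nr4a1 is widely used as a reporter of recent receptor signals in mouse T cells. Tnfrsf9 encodes the costimulatory receptor 4-1BB, which appears later on activated T cells and on regulatory T cells, and Ccl4 a chemokine that activated CD8 T cells secrete. In the lymph node CD69 holds recently stimulated T cells back by removing the sphingosine phosphate receptor S1PR1 from the cell surface.

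The upstream sequences of 5 genes follow, because the genes stand high together in the selected cells: Nr4a1 and Egr2 by the rule itself, and Nfkbid, Tagap and Dusp2 among the genes it did not use. Each is the 250 bases before the most upstream start that RefSeq lists for the gene, in build GRCm38.p6, written 5′ to 3′ with matches to the searched motifs in capitals. Windows were sought for 7 genes and found for 6: Cd69 had none, and the window of Tnfrsf9 is not shown.
Nr4a1, chr15:101266596-101266845, plus strand: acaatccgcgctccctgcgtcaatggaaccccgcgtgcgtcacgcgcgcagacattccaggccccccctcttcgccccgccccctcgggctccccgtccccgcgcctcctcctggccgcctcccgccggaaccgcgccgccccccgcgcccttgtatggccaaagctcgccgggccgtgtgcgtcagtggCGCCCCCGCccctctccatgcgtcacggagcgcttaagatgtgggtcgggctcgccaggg
Egr2, chr10:67535249-67535498, plus strand: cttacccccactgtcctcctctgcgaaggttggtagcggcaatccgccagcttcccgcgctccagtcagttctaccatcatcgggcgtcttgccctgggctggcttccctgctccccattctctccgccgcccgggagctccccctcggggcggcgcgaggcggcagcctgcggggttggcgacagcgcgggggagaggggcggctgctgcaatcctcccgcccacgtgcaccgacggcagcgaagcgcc
Nfkbid, chr7:30421481-30421730, plus strand: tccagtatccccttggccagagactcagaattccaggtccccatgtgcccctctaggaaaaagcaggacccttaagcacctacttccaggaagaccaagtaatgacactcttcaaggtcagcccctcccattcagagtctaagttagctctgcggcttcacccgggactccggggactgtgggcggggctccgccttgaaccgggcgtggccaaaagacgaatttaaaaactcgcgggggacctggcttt
Tagap, chr17:7925750-7925999, plus strand: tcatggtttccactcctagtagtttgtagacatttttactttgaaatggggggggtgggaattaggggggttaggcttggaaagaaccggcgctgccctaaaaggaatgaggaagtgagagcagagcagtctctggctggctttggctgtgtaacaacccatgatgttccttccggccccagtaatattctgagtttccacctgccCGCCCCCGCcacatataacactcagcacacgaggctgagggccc
Dusp2, chr2:127335909-127336158, plus strand: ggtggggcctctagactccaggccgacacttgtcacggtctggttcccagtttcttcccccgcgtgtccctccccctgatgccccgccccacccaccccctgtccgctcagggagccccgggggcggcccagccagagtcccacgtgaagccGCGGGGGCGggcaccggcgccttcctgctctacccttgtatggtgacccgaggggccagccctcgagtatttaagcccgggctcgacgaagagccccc
On either strand 5 motifs were searched: the CArG box bound by serum response factor, the cAMP response element TGACGTCA, the AP-1 motif TGANTCA, the kappaB motif and the EGR motif GCGNGGGCG. The capitals in Nr4a1, Tagap and Dusp2 are 1 EGR match each, on the minus strand in Nr4a1 and Tagap and on the plus strand in Dusp2. The EGR motif occurs in 4.70% of all 32851 listed upstream windows of this length. The 3 of 5 windows here are a description of letters only, since the 5 genes were chosen by their levels in these data and Tnfrsf9 was left out. The windows of Egr2 and Nfkbid hold none of the 5 motifs, but 5 starts are listed for Egr2 and 3 for Nfkbid, and only the most upstream was used. The other motifs occur in 1.47% (CArG box), 1.55% (cAMP response element), 6.75% (AP-1) and 3.90% (kappaB) of all windows and in none of these 5.

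The selected cells made up 1.62% (0.979 to 2.52%) of the allogeneic T cells defined above and 2.36% (1.93 to 2.86%) of the syngeneic ones. The libraries differ in depth: the median selected cell held 3669 UMIs if allogeneic and 4921 if syngeneic. With every cell thinned to 1000 UMIs, the sum reached 3 in 0.464% (0.151 to 1.1%) of 1078 allogeneic cells and in 0.344% (0.193 to 0.567%) of 4360 syngeneic cells, so the order of the 2 shares turned. A further 94 allogeneic cells and 0 syngeneic cells were too shallow for this. No difference in the share between the graft types could be read at this depth. The sum was not particular to the T cells of the rule: it reached 3 in 15 of 122 allogeneic and 33 of 218 syngeneic T cells with Foxp3, the regulatory T cell factor. It did so in 7 of 28 and 9 of 56 T cells with over 1 UMI of Cxcr5, Pdcd1, Tox2 and Il21. Of T cells with over 1 UMI of Xcl1, Lag3 and Tyrobp, 13 of 64 and 19 of 226 reached it. The counts were 0 of 250 allogeneic and 8 of 436 syngeneic B cells, which had Cd79a and no Cd3 UMI.

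**Figure D1:**
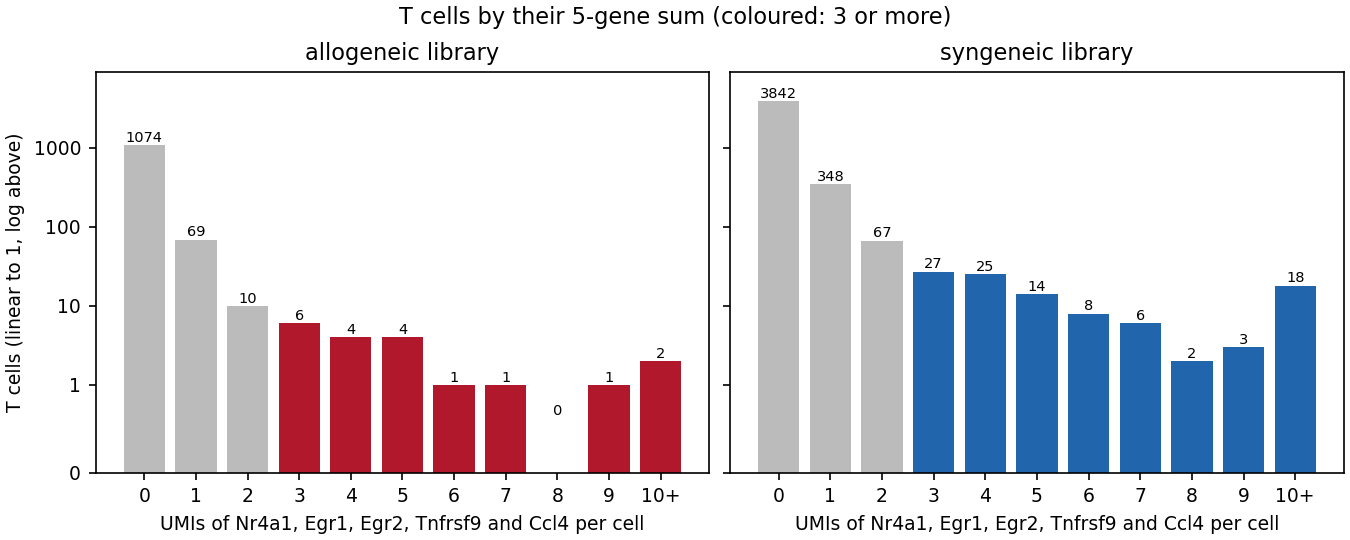
T cells of the rule by the UMIs of the 5 genes per cell (horizontal axis), with the number of cells on a vertical axis that is linear up to 1 and logarithmic above, for the allogeneic (left) and syngeneic (right) library. Coloured bars are the 19 and 103 selected cells, and grey bars the cells with a sum of 0, 1 or 2.

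Just inside the threshold stood 6 allogeneic and 27 syngeneic cells with a sum of 3, and just outside it 10 and 67 cells with a sum of 2. The median sum of the selected cells was 4 in either library, and the highest single cell reached 11 (allogeneic) and 52 (syngeneic). Egr1 made up most of the allogeneic sum: it was seen in 16 of 19 cells with 50 UMIs, a level of 696 CPM (UMIs of the gene per 1000000 UMIs of the cell set). It was seen in 76 of 103 syngeneic cells with 212 UMIs, 343 CPM. Egr2 was seen in 13 allogeneic cells (29 UMIs, 404 CPM) and 57 syngeneic cells (132 UMIs, 213 CPM). Of the allogeneic cells 18, and of the syngeneic cells 83, held Egr1 or Egr2, and 11 and 50 held both.

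Nr4a1 was seen in 2 allogeneic cells (6 UMIs, 83.6 CPM, 5 of the UMIs in 1 cell) and in 42 syngeneic cells (150 UMIs, 243 CPM). Tnfrsf9 was seen in 6 allogeneic cells (12 UMIs, 167 CPM) and 32 syngeneic cells (108 UMIs, 175 CPM). Ccl4 had 1 UMI among the allogeneic cells. It had 66 UMIs in 7 syngeneic cells, 36 of them in 1 cell. These 5 genes chose the cells, so their levels are a description only. Of their relatives, Nr4a3 had 17 UMIs in 9 syngeneic cells (27.5 CPM), Nr4a2 had 6 UMIs, Egr3 1 UMI and Egr4 0 UMIs. All 4 had 0 UMIs in the allogeneic cells, which allows up to 41.8 CPM.

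The 2 genes of the label that the rule did not use, Cd69 and Nfkbid, were higher in the selected cells of either library. Cd69 stood at 1602 CPM in the allogeneic selected cells, against 189 CPM in the allogeneic T cells with a sum of 0, a log2 ratio of 3.08 (2.78 to 3.37). In the syngeneic library it stood at 676 CPM in the selected cells, against 43.8 CPM, a log2 ratio of 3.95 (3.78 to 4.12). Cell by cell, the allogeneic selected cells held from 0 to 19 UMIs of Cd69 with a median of 4, and the syngeneic ones from 0 to 28 with a median of 2, against a median of 0 in the cells with a sum of 0 of either library. The ranges overlap, since the highest cell with a sum of 0 held 22 allogeneic and 15 syngeneic UMIs. A UMI of Cd69 was found in 16 of 19 allogeneic and 76 of 103 syngeneic selected cells, against 362 of 1074 and 634 of 3842 cells with a sum of 0. With every cell thinned to 1000 UMIs, a Cd69 UMI was found in 52.6% of the allogeneic and 43.7% of the syngeneic selected cells, against 15.3% and 3.90% of the cells with a sum of 0. As a gauge of free RNA, erythroid barcodes, which should lack the gene, gave one in 8 of 73 allogeneic cases at a median of 9606 UMIs and in 1 of 6 syngeneic cases at 8108.5.

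Nfkbid, a nuclear IκB protein that modifies NF-κB transcription after receptor signals, stood at 125 CPM in the allogeneic selected cells, against 12.0 CPM, a log2 ratio of 3.38 (2.17 to 4.43). This rests on 9 UMIs in 5 cells. Its syngeneic level was 196 CPM in the selected cells, against 20.7 CPM, a log2 ratio of 3.24 (2.93 to 3.53), from 121 UMIs in 58 cells.

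Cd69 and Tagap were higher in cells with a sum of 4 or more than in cells with a sum of 3, 2, 1 or 0, in that order in the syngeneic library. Cd69 stood at 43.8, 68.9, 274, 355 and 778 CPM in syngeneic cells with a sum of 0, 1, 2, 3 and 4 or more. In the allogeneic library the values were 189, 441, 405, 903 and 1936 CPM. Klf2 ran the other way, with 997, 876, 712, 823 and 505 CPM over the same syngeneic bins and 1213, 1231, 786, 903 and 330 CPM over the allogeneic ones. The threshold of 3 thus cut through a gradient, and the cells with a sum of 2 lay between the 2 sets for each of these genes in the syngeneic library.

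**Figure D2:**
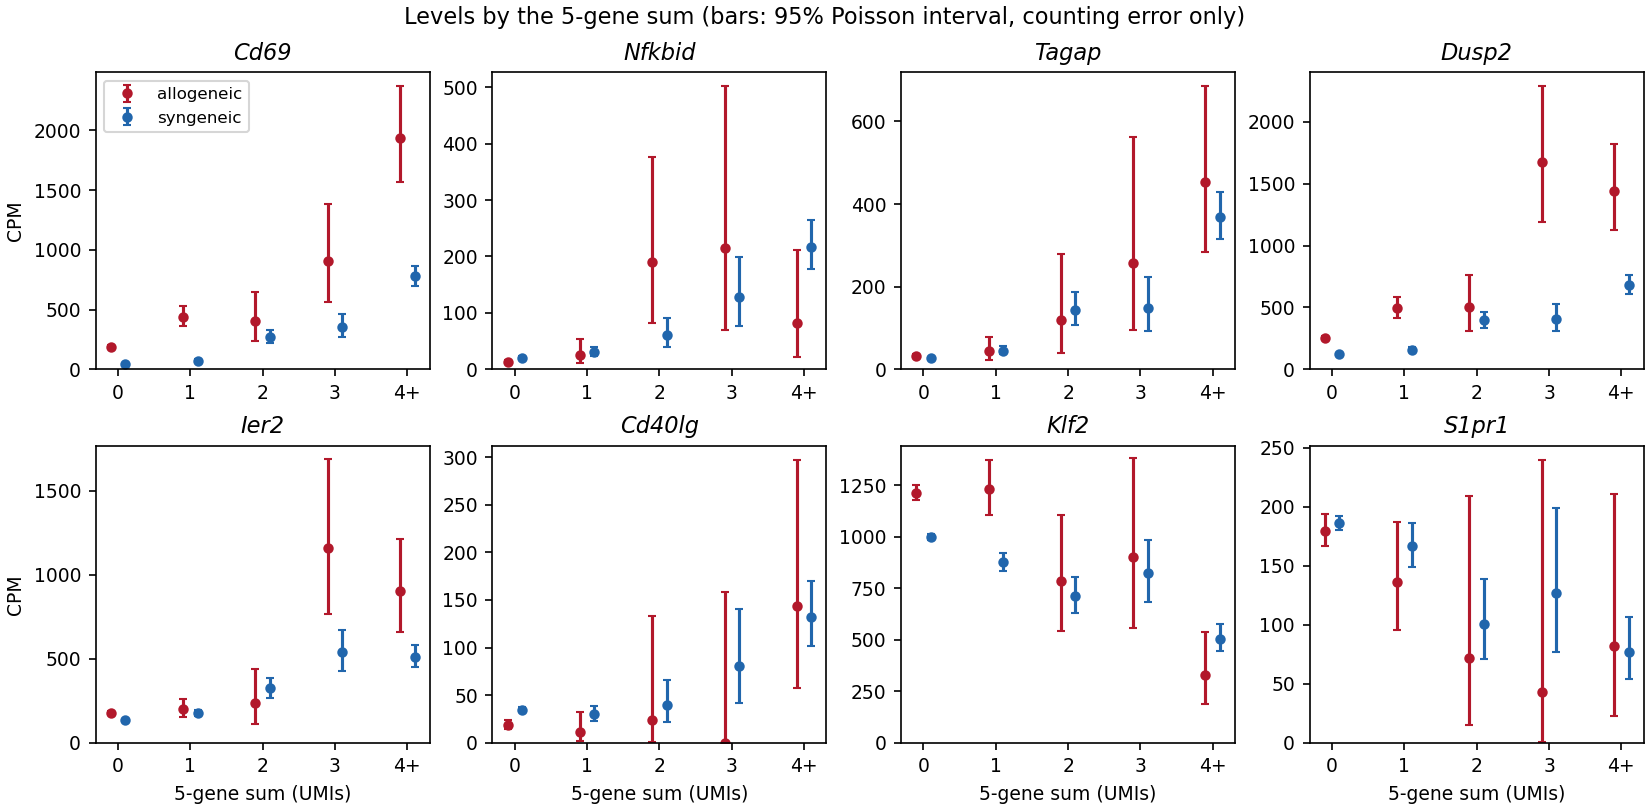
Levels in CPM (vertical axes, linear from 0) of 8 genes in T cells grouped by their 5-gene sum (horizontal axes), for the allogeneic (red) and syngeneic (blue) library; bars are exact 95% Poisson intervals. Cd69 reaches 1936 and 778 CPM at a sum of 4 or more, while Klf2 stands at 330 and 505 CPM there.

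Over all genes with at least 50 UMIs in the 2 sets together and 50 CPM in either, 635 of 3213 (19.8%) were at least 2-fold higher in the allogeneic selected cells and 196 (6.1%) at least 2-fold lower. Among syngeneic cells 61 of 2587 (2.36%) were at least 2-fold higher and 8 (0.309%) at least 2-fold lower. The allogeneic selected cells held 71807 UMIs in all, so that 4 UMIs of a gene reach the minimum of 50 CPM, and a gene that passed only through that small set had to be higher in it. In either library a gene under 50 CPM in the cells with a sum of 0 could be tested only if it was higher in the selected cells. By any amount 69.8% and 66.2% of the genes were higher, and the median log2 ratio of the genes tested was 0.38 (allogeneic) and 0.13 (syngeneic). It was 0.086 and 0.0090 among the genes with at least 300 CPM in the cells with a sum of 0. T cell markers beyond the Cd3 genes of the rule were close, with median log2 ratios of 0.20 and 0.039 over 4 genes measured. Haemoglobin and neutrophil genes, of other cell types, summed to 5459 CPM in the allogeneic selected cells (2998 to 7970 CPM per cell, 9 of 10 genes seen, Camp at 0), against 60511 CPM in the allogeneic cells with a sum of 0 (0 to 965046 CPM per cell, 10 of 10 genes). The allogeneic medians per cell were close, at 5481 CPM in the selected cells and 5057 CPM in the cells with a sum of 0. Of those 1074 cells with a sum of 0, 93 held over 1% haemoglobin. The syngeneic sums of these genes were 34 CPM (0 to 262 per cell) and 44.8 CPM (0 to 965 per cell). The part of haemoglobin and neutrophil genes in the allogeneic ratios was not tested gene by gene. Of the 2325 genes tested in both libraries, 40 were at least 2-fold higher and 2 at least 2-fold lower in both.

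**Figure D3:**
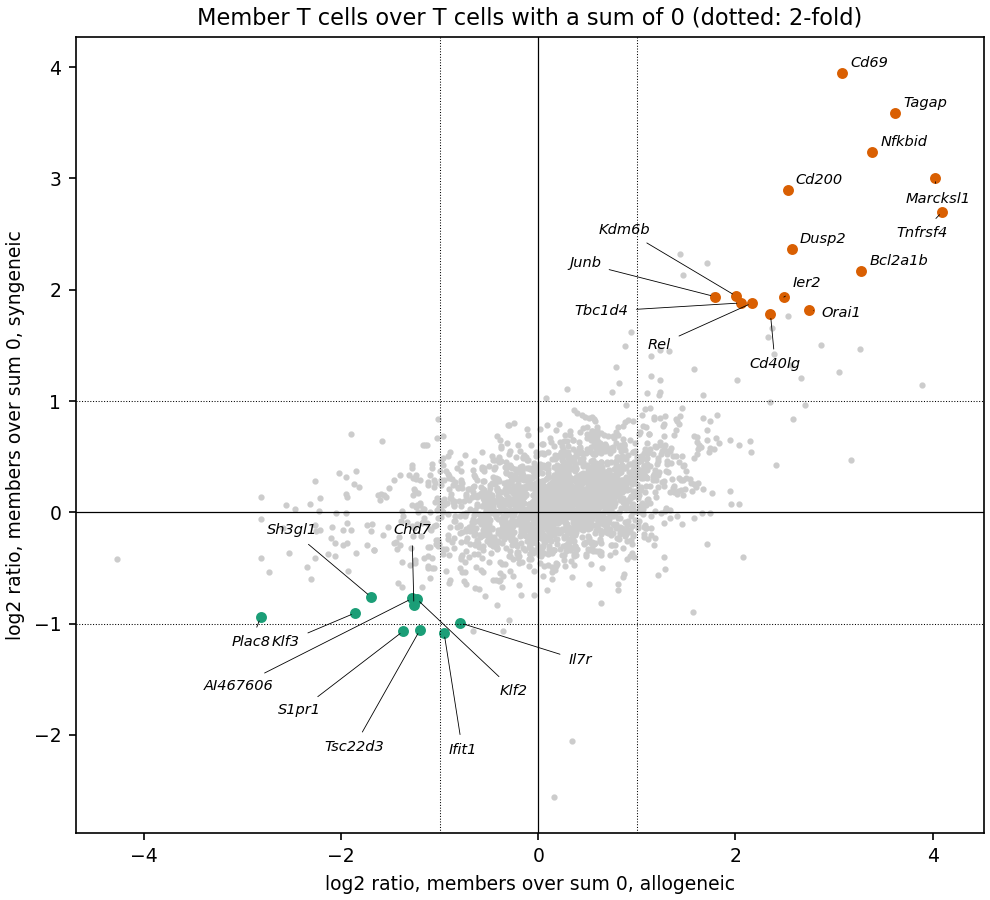
Each point is a gene tested in both libraries, placed by its log2 ratio of selected cells over T cells with a sum of 0 in the allogeneic (horizontal) and syngeneic (vertical) library; dotted lines mark 2-fold. The 15 highest (orange) and 10 lowest (green) by the smaller of the 2 ratios are named; Tagap, Nfkbid and Cd69 lie above 3 on both axes.

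Tagap, a GTPase-activating protein gene induced in activated T cells, headed the genes higher in both libraries. It stood at 390 CPM in the allogeneic selected cells, against 31.8 CPM, a log2 ratio of 3.61 (2.97 to 4.22), and at 315 CPM in the syngeneic selected cells, against 26.2 CPM, a log2 ratio of 3.59 (3.34 to 3.83). Dusp2, a phosphatase that switches off MAP kinases in lymphocytes, stood at 1520 CPM against 256 CPM in the allogeneic library (log2 ratio 2.57, 2.27 to 2.86). Its syngeneic level was 615 CPM in the selected cells, against 119 CPM (2.36, 2.2 to 2.52). Per cell, the median of Dusp2 was 5 UMIs in selected allogeneic cells, against 1 in those with a sum of 0, and 3 UMIs in selected syngeneic cells, against 0.

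Immediate early genes outside the sum were also higher. Of 27 such genes on the list, 13 could be measured in each library: 12 were higher in the allogeneic selected cells, 8 of them at least 2-fold, with a median log2 ratio of 1.35, and 11 in the syngeneic ones, 6 at least 2-fold, with a median of 0.78. Of all genes tested, 69.8% (allogeneic) and 66.2% (syngeneic) were higher, and 19.8% and 2.36% at least 2-fold. Ier2 stood at 989 CPM in the allogeneic selected cells, against 176 CPM (log2 ratio 2.49), and at 521 CPM in the syngeneic ones, against 136 CPM (1.93). Junb, a subunit of the AP-1 factor, had log2 ratios of 1.79 and 1.94. Zfp36 and Zfp36l1, which encode proteins that bind and destabilise AU-rich mRNAs, had ratios of 2.53 and 2.38 among allogeneic and of 1.76 and 1.66 among syngeneic cells. Fos was carried by few cells: 9 UMIs lay in 3 allogeneic cells and 48 UMIs in 13 syngeneic cells, 17 of them in 1 cell. The inducible heat shock genes Hspa1a and Hspa1b had 0 UMIs in the selected cells of either library, which allows up to 41.8 CPM in the allogeneic and 4.85 CPM in the syngeneic cells.

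The NF-κB list, of subunits and feedback genes, was higher in all members measured, 13 of 13 in the allogeneic and 11 of 11 in the syngeneic selected cells. At least 2-fold higher were 12 and 5 of them, with medians of 1.26 and 0.93, where all genes tested gave 69.8% and 66.2% higher and 19.8% and 2.36% at least 2-fold. Rel, the c-Rel subunit that is prominent in activated lymphocytes, stood at 209 CPM against 46.4 CPM in the allogeneic library (log2 ratio 2.17, 1.30 to 2.93). Syngeneic selected cells held 141 CPM, against 38.2 CPM (1.88, 1.54 to 2.2). Nfkbia, the IκBα inhibitor and itself an NF-κB target, had ratios of 0.87 and 1.5. Bcl2a1b, an antiapoptotic NF-κB target, had ratios of 3.27 and 2.17. It belongs to a family of near-identical copies whose reads may be split among them. Rel and Bcl2a1b stood under 50 CPM in the cells with a sum of 0 of either library. Such genes could be counted only if higher, and the number that entered this way is not given here.

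Among receptors and ligands of activated T cells, 14 of 24 genes on the list were measured in the allogeneic library. Of these, 13 were higher in the selected cells, 11 at least 2-fold, with a median log2 ratio of 1.96. In the syngeneic ones 11 of 11 were higher, 5 at least 2-fold, with a median of 0.85. The shares over all genes tested were 69.8% higher with 19.8% at least 2-fold (allogeneic) and 66.2% with 2.36% (syngeneic). Tnfrsf4, which encodes the costimulatory receptor OX40, stood at 627 CPM in the allogeneic selected cells, against 36.5 CPM (log2 ratio 4.10, 3.58 to 4.59). The syngeneic level was 157 CPM in the selected cells, against 24.1 CPM (2.70, 2.37 to 3.02), with 25 of 97 UMIs in 1 cell. Cd40lg, the CD40 ligand by which helper T cells activate B cells, had ratios of 2.36 and 1.78, the first from 7 UMIs. Cd200, an inhibitory ligand, had ratios of 2.53 and 2.90. Orai1, the pore of the calcium channel that opens after receptor signals, had ratios of 2.75 and 1.82. Tnfrsf4, Cd40lg and Orai1 stood under 50 CPM in the cells with a sum of 0 of either library. They could thus be counted only if higher. Cytokines were scarce: Il2 had 2 UMIs in the allogeneic and 17 in the syngeneic selected cells and was also seen in 23 of 250 allogeneic and 48 of 436 syngeneic B cells, so its level is at background. Tnf had 3 UMIs in the allogeneic selected cells. It had 56 UMIs in 28 of 103 syngeneic selected cells, at 90.6 CPM against 7.68 CPM.

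Genes that keep T cells naive and circulating were lower. Of the 18 genes on that list all were measured in the allogeneic library, where 15 were lower in the selected cells, 7 of them at least 2-fold, with a median log2 ratio of −0.70. Of 16 measured in the syngeneic library 15 were lower, 2 at least 2-fold, with a median of −0.51. Of all genes tested, 6.1% (allogeneic) and 0.309% (syngeneic) were at least 2-fold lower, while 69.8% and 66.2% were higher. Against T cells with Foxp3 the naive list had medians of 0.066 over 14 genes (allogeneic) and 0.14 over 16 genes (syngeneic). S1pr1, the egress receptor, stood at 69.6 CPM in the allogeneic selected cells, against 180 CPM (log2 ratio −1.37, −3.0 to −0.14), from 5 UMIs. Its syngeneic level was 88.9 CPM in the selected cells, against 186 CPM (−1.07, −1.48 to −0.68). Klf2, the factor that drives S1pr1, stood at 515 CPM in the allogeneic selected cells, against 1213 CPM (−1.24, −1.74 to −0.77), and at 582 CPM in the syngeneic ones, against 997 CPM (−0.78, −0.93 to −0.63). Il7r, the receptor for the survival cytokine IL-7, had ratios of −0.80 and −0.99.

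Glucocorticoid-induced genes were lower in 5 of 7 measured (allogeneic) and 5 of 5 (syngeneic), and the medians were −0.74 and −0.64. This list shares Il7r and Txnip with the naive list. For it and for the interferon list below, the comparison is that 69.8% (allogeneic) and 66.2% (syngeneic) of all genes tested were higher. Tsc22d3, which encodes the glucocorticoid-induced leucine zipper protein, stood at 320 CPM in the allogeneic selected cells, against 736 CPM, and at 56.6 CPM in the syngeneic ones, against 118 CPM. Type I interferon response genes were lower in 15 of 22 measured in the allogeneic selected cells (median −0.24) and in 14 of 14 in the syngeneic ones (median −0.44). The syngeneic Ifit1 level was 24.3 CPM in the selected cells, against 51.4 CPM. Proliferation genes gave no common direction, with medians of −0.45 over 6 and 0.16 over 9 genes measured. Of the syngeneic UMIs of Top2a, a gene of dividing cells, 28 of 34 lay in 1 selected cell.

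**Figure D4:**
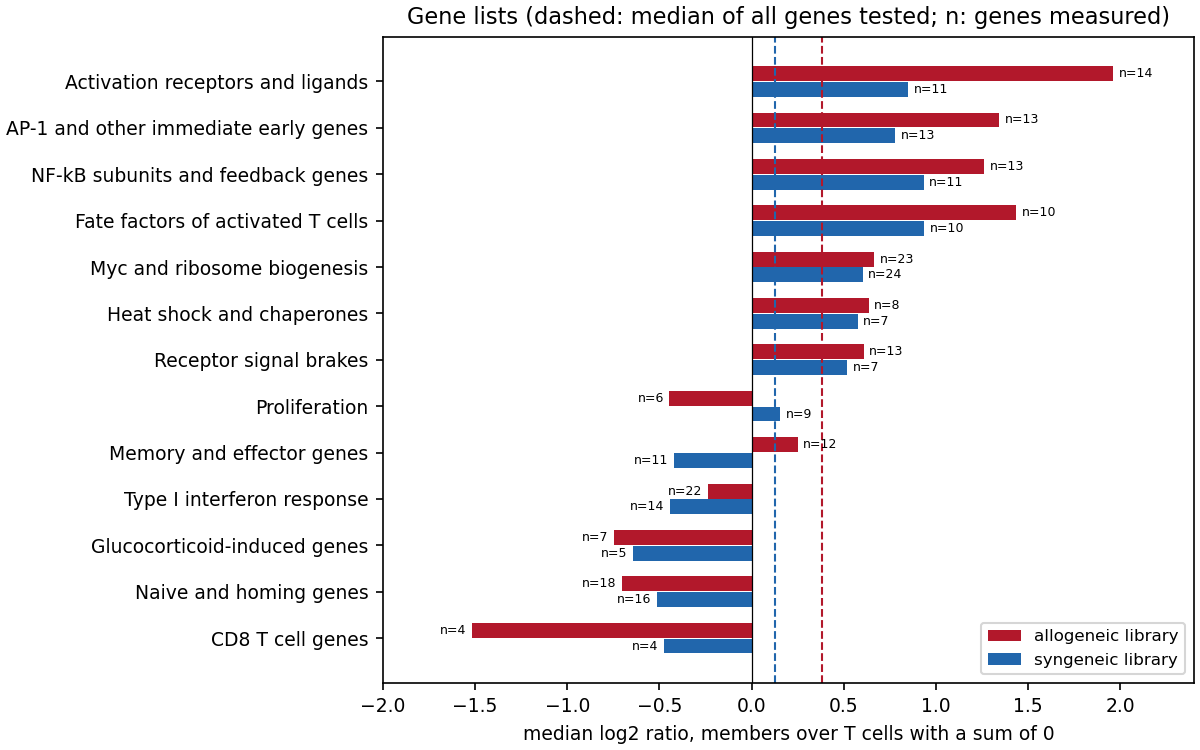
Median log2 ratio of selected cells over T cells with a sum of 0 (horizontal axis) for 13 gene lists, in the allogeneic (red, upper bar) and syngeneic (blue, lower bar) library; n is the number of genes measured and the dashed lines are the medians of all genes tested, 0.38 and 0.13. Of the lists drawn, activation receptors lie highest in the allogeneic library at 1.96, and the naive list lies at −0.70 and −0.51.

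Further lists are read against the 69.8% (allogeneic) and 66.2% (syngeneic) of all genes tested that were higher. Of the negative regulators of receptor signals 9 of 13 measured were higher in the allogeneic selected cells, a share near that of all genes, and 6 of 7 in the syngeneic ones, with medians of 0.61 and 0.52. Of the MAP kinase phosphatases 2 of 3 were higher among allogeneic cells, a share near that of all genes. In the syngeneic ones Dusp2 alone was measured. Among transcription factors of differentiating T cells 9 of 10 and 8 of 10 were higher, with medians of 1.44 and 0.94. Id3, an inhibitor of E proteins induced by receptor signals, stood at 111 CPM in the allogeneic selected cells, against 22.2 CPM, and at 222 CPM in the syngeneic ones, against 74.5 CPM (log2 ratios 2.33 and 1.57). Genes linked to Egr factors and raised in anergic T cells were higher in 3 of 4 and 4 of 4, with medians of 2.46 and 0.95. The allogeneic share is near that of all genes. Of the 12 genes on this list 2 belong to the rule, which chose cells in part by Egr1 and Egr2. The list is thus not independent of the rule. Chaperone genes were higher in 7 of 8 and 7 of 7, with medians of 0.64 and 0.58, but 0 of 8 and 1 of 7 reached 2-fold, against 19.8% and 2.36% of all genes. Hspa5, the chaperone BiP of the endoplasmic reticulum, stood at 473 CPM in the allogeneic selected cells, against 269 CPM, and at 539 CPM in the syngeneic ones, against 241 CPM.

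Memory and effector genes were lower in 10 of 11 measured in the syngeneic selected cells, where 66.2% of all genes were higher, with a median log2 ratio of −0.42. In the allogeneic ones 7 of 12 were higher, below the 69.8% of all genes, with a median of 0.25. Without cells with dendritic genes, among them the 1 selected cell that held all 61 Ccl5 UMIs, 5 of 11 were higher and the median was −0.44. Nkg7, a granule protein of cytotoxic cells, stood at 83.6 CPM in the allogeneic selected cells, against 402 CPM, and at 356 CPM in the syngeneic ones, against 473 CPM. Of the CD8 lineage genes 4 of 4 measured were lower in the selected cells of either library, with medians of −1.52 (allogeneic) and −0.47 (syngeneic).

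Myc, the growth factor-induced transcription factor, stood at 153 CPM in the allogeneic selected cells, against 56.4 CPM, and at 281 CPM in the syngeneic selected cells, against 56.4 CPM (log2 ratio 2.32, 2.08 to 2.55). The allogeneic value rests on 11 UMIs in 5 cells, and the log2 ratio was −0.09 there without cells that held UMIs of B or myeloid lineage genes or over 1% haemoglobin. All 24 measured genes of the Myc and ribosome biogenesis list were higher in the syngeneic selected cells, but only 1, Myc itself, by 2-fold, and the median was 0.60. In the allogeneic library 19 of 23 were higher, 6 of them at least 2-fold, and the median was 0.67. Of all genes tested, 69.8% (allogeneic) and 66.2% (syngeneic) were higher, and 19.8% and 2.36% at least 2-fold.

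The syngeneic cells were numerous enough to be divided by coreceptor. Of the 103 selected cells 27 held Cd4 and no Cd8a or Cd8b1 UMI, 36 held Cd8a or Cd8b1 and no Cd4, 23 held both kinds and 17 neither. The call rests on single UMIs: of B cells, which should lack these genes, 96 of 436 syngeneic (22.0%, median 4164.5 UMIs) and 16 of 250 allogeneic ones (6.4%, median 2246.5 UMIs) also counted as Cd8-only, and 15 and 5 as Cd4-only. Selected cells made up 2.93% (1.94 to 4.23%) of the 923 syngeneic Cd4-only T cells and 1.68% (1.18 to 2.32%) of the 2138 Cd8-only ones. In the allogeneic library 4 selected cells were Cd4-only, 3 Cd8-only, 2 both and 10 neither, too few for levels of their own. Cd69 levels were close in the lineages, at 677 CPM in the Cd4-only and 824 CPM in the Cd8-only syngeneic selected cells, against 45.3 and 46.1 CPM in the cells of the same lineage with a sum of 0.

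Growth and naive genes had different ratios in the 2 lineages, a difference that has no test here. Over the Myc and ribosome biogenesis list, 13 of 25 measured genes were at least 2-fold higher in the Cd4-only selected cells, with a median log2 ratio of 1.03 over Cd4-only cells with a sum of 0. In the Cd8-only cells this held for 1 of 23, with a median of 0.13. Over all genes tested, 11.6% in the Cd4-only and 2.62% in the Cd8-only cells were at least 2-fold higher. Ncl, the nucleolar protein nucleolin, stood at 1342 CPM in the Cd4-only selected cells, against 566 CPM, and at 581 CPM in the Cd8-only selected cells, against 608 CPM. Of the 206 Cd4-only UMIs of Ncl, 45 lay in 1 cell. Of the 27 Cd4-only cells, 6 had Tnfrsf9 as their only gene of the sum. Without these 6, a comparison added after seeing the data, Ncl stood at 1165 CPM, with 35 of 121 UMIs in 1 cell. Of 21 measured genes of the list 8 were at least 2-fold higher, with a median of 0.91. The 11.6% over all genes is for the 27 cells, and the share for the smaller set is not given here. Klf2 stood at 300 CPM in the Cd4-only selected cells, against 989 CPM, and at 915 CPM in the Cd8-only ones, against 1017 CPM. Nfkbid and Tagap had close ratios in the lineages, at 3.34 and 3.71 in the Cd4-only and 3.52 and 3.68 in the Cd8-only cells.

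The selected cells also varied by which gene of the sum they carried. In the syngeneic library 88 cells held Egr1, Egr2 or Nr4a1, and 15 reached the sum through Tnfrsf9 or Ccl4 alone. Of those 15, 11 held Tnfrsf9 and no other gene of the sum. Cd69 stood at 806 CPM (730 to 889) in the 88 cells and at 47.3 CPM (12.9 to 121) in the 11 cells, where all 4 UMIs lay in 1 cell, against 43.8 CPM in the cells with a sum of 0. Nfkbid stood at 227 CPM in the 88 cells and at 47.3 CPM in the 11 cells, and Tagap at 379 and 59.1 CPM. For the 11 cells with Tnfrsf9 alone, 2 of which carried dendritic genes, the label of early activation thus does not hold on Cd69. Other activation genes stood above the cells with a sum of 0 in them, from few UMIs. Tnfrsf4 stood at 260 CPM against 24.1 CPM (22 UMIs, 9 of them in 1 cell). Rel stood at 130 CPM against 38.2 CPM (11 UMIs) and Cd200 at 94.6 CPM against 11.5 CPM (8 UMIs). The 11 cells held 367 CPM of Ikzf2 and 284 CPM of Izumo1r, and the 88 cells 80.2 and 86.3 CPM. Ikzf2 encodes Helios, a factor of regulatory T cells, and Izumo1r folate receptor 4, which regulatory and anergic T cells carry. Of these UMIs, 10 of 31 for Ikzf2 and 11 of 24 for Izumo1r lay in 1 cell, and another cell held 9 of the 24. Ctla4, read below among genes of regulatory T cells, had 0 UMIs in the 11 cells (0 to 43.6 CPM). It stood at 16.0 CPM in the 88 cells.

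**Figure D5:**
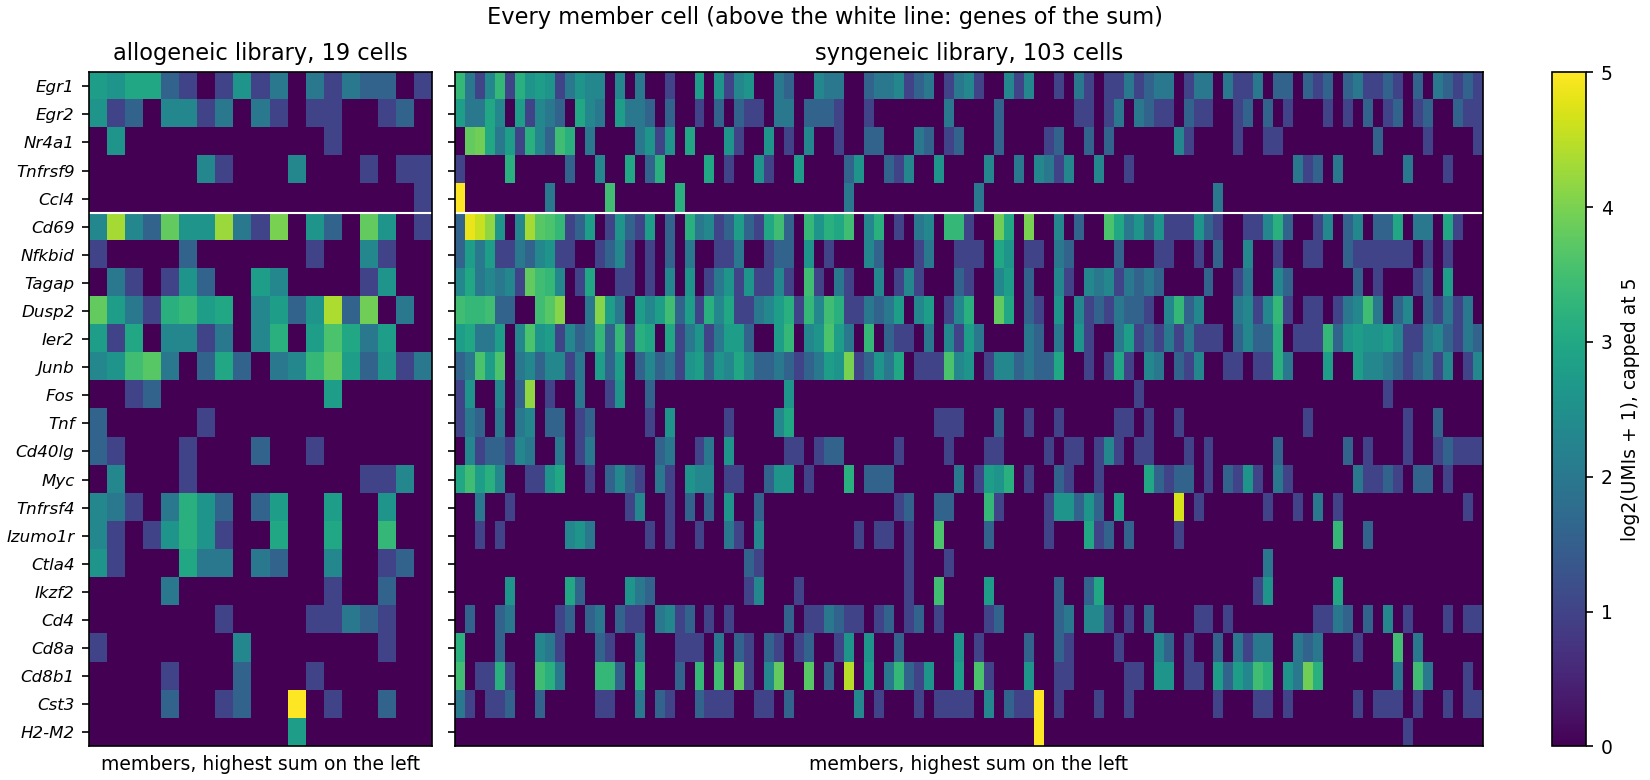
UMIs of 24 genes (rows) in each of the 19 allogeneic (left) and 103 syngeneic (right) selected cells, ordered from the highest sum on the left; colour is log2(UMIs + 1), capped at 5, and the white line parts the genes of the sum from the rest. Cd69 and Dusp2 are seen in most cells, Ctla4 in 10 of 19 allogeneic but 5 of 103 syngeneic cells, and Cst3 is bright in 1 cell of each library.

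Genes of regulatory T cells were frequent among the selected cells although Foxp3 itself was excluded by the rule. At least 3 UMIs of Ctla4, Izumo1r and Tnfrsf4 together were found in 10 of 19 allogeneic selected cells, against 53 of 1074 cells (4.93%) with a sum of 0, and in 20 of 103 syngeneic ones, against 210 of 3842 cells (5.47%). The same held for 66 of 122 allogeneic and 149 of 218 syngeneic T cells with Foxp3, and for 0 of 250 and 1 of 436 B cells. Ctla4, an inhibitory receptor of activated and regulatory T cells, stood at 432 CPM in the allogeneic selected cells, against 37.1 CPM, and at 12.9 CPM in the syngeneic ones, against 3.92 CPM, from 8 UMIs. Izumo1r stood at 668 CPM in the allogeneic selected cells, against 74.4 CPM (log2 ratio 3.17). The syngeneic selected cells held 108 CPM, against 78.0 CPM (0.47, 0.10 to 0.83), and with cells thinned to 1000 UMIs the log2 ratio was −0.017 and an Izumo1r UMI was found in 5.83% of selected cells, against 6.32%. Within the syngeneic lineages Izumo1r stood at 293 CPM in the Cd4-only selected cells, against 132 CPM, and at 14.3 CPM in the Cd8-only ones, against 36.3 CPM. The Cd8-only value rests on 3 UMIs, the least that can be read here. In the Cd4-only cells, 1 cell with Tnfrsf9 alone held 11 UMIs and another held 9. A difference in direction by lineage is thus not shown. Over a list of regulatory T cell genes other than Foxp3, 8 of 8 measured were higher in the allogeneic selected cells (median log2 ratio 1.60). In the syngeneic ones 4 of 5 were higher (0.72), where 69.8% (allogeneic) and 66.2% (syngeneic) of all genes were higher. As on the other lists, a gene under 50 CPM in the cells with a sum of 0 could be counted only if higher. Against T cells with Foxp3 the same list had a median of −0.42 over 9 genes in the allogeneic selected cells, 4 of them higher, and of −2.25 over 11 genes in the syngeneic ones, all 11 lower by at least 2-fold. Of all genes tested against T cells with Foxp3, 47.1% were higher in the allogeneic selected cells and 4.48% at least 2-fold lower in the syngeneic ones. That list and these 3 genes were put together after values were seen, and the part that regulatory T cells with no captured Foxp3 UMI have in the result was not tested.

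Dendritic cell genes entered through few cells. In the allogeneic library 1 selected cell held 1 Cd3 UMI beside 61 UMIs of Ccl5, 47 of Clu, 45 of Cst3, 12 of Fscn1 and 6 of H2-M2, with 4 UMIs of Tnfrsf9 and none of Egr1 or Egr2. A cell was called by at least 1 UMI of Fscn1, H2-M2, Ccl22, Siglech, Flt3 or Clec9a, or by at least 10 of Cst3. In the syngeneic library 7 of 103 selected cells were called, against 186 of 3842 cells with a sum of 0. Of the 7 cells, 1 held 131 of their 134 UMIs of Cst3 and 44 of their 45 UMIs of H2-M2. Without such cells the allogeneic Cst3 level was 120 CPM in 18 selected cells, against 116 CPM, where it had been 738 CPM, and the allogeneic Ccl5 level was 0 UMIs. The allogeneic log2 ratio of Marcksl1, an actin-regulating protein gene, was 4.02 with that cell, which held 10 of 14 UMIs, and 2.32 without it. Cd69 kept ratios of 3.20 and 3.92 without these cells. Over the whole list of myeloid and dendritic markers, 6 of 17 allogeneic and 11 of 17 syngeneic genes had a UMI in the selected cells, at 0 to 11889 and 0 to 22046 CPM per cell. Csf1r, C1qa and Cd14 were at 0 in both. A list of migratory dendritic genes, made after values were seen, was higher in 5 of 5 measured (allogeneic, median 3.50) and 3 of 3 (syngeneic, median 1.21), where 69.8% and 66.2% of all genes were higher. Without cells with dendritic genes it was higher in 2 of 2 (allogeneic, median 0.32, against 0.37 over all genes) and 1 of 2 (syngeneic, median −0.093). Fscn1, H2-M2 and Ccl22 of this list, and Cst3, were themselves part of the call. The falls of the list and of Cst3 thus follow in part from the call. Of 12 B cell markers 7 and 11 had a UMI, with Cd79a at 0 by the rule and single cells at 0 to 983 and 0 to 69310 CPM. Without the syngeneic cells with dendritic genes the highest cell held 5424 CPM of B cell markers.

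The graft types were set side by side within the selected cells last. Of 1716 genes tested, 133 (7.75%) were at least 2-fold higher and 201 (11.7%) at least 2-fold lower in the 19 allogeneic than in the 103 syngeneic selected cells. Among cells with a sum of 0, 158 of 2570 (6.15%) were higher and 57 (2.22%) lower in the same sense. S100a8 of neutrophils and Hbb-bs of red cells had the most extreme ratios together with Hba-a1, at 836 and 2660 CPM in the allogeneic selected cells, against 3.23 and 14.6 CPM in the syngeneic ones. Their log2 ratios of 8.01 and 7.51 had counterparts of 7.62 and 10.34 in cells with a sum of 0. Ly6a (Sca-1, an interferon-induced surface protein), Zfp36l2 and Tsc22d3 had ratios of 3.16, 3.16 and 2.50 in the selected cells and of 2.74, 2.3 and 2.64 in cells with a sum of 0.

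Izumo1r, also among the 10 highest, had a log2 ratio of 2.63 (2.06 to 3.18) in the selected cells and −0.07 in cells with a sum of 0. Tnfrsf4 had ratios of 2.0 (1.45 to 2.52) and 0.60, and Ctla4 of 5.06 and 3.24. Cd69 was higher in the allogeneic library in the selected cells (1.24, 0.93 to 1.55) and in cells with a sum of 0 (2.11). Nfkbid and Cd40lg had ratios of −0.64 (−1.81 to 0.33) and −0.30 (−1.66 to 0.82), whose intervals include 0. Among the lowest ratios were Cd8b1 and Ly6c2. Cd8b1, the CD8 beta chain, stood at 55.7 CPM in the allogeneic selected cells, against 493 CPM in the syngeneic ones (−3.15, −5.03 to −1.78), and its ratio in cells with a sum of 0 was −0.95. Ly6c2, a surface protein of memory CD8 cells, stood at 13.9 CPM, from 1 UMI, against 341 CPM (−4.61, −9.93 to −2.12), with −0.76 in cells with a sum of 0. Of the selected cells, 3 of 19 allogeneic and 36 of 103 syngeneic ones were Cd8-only, where B cells gave 6.4% and 22.0% by the same call, so the difference in makeup cannot be read from these calls. The part of this makeup, of the graft and of the library cannot be told apart.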

How the data were processed

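RNA of lymph node immune cells was counted in 2 droplet libraries, 1 per graft type. Per the labels, the chemistry was 10x Chromium for 3′ ends. Whole-number UMI counts per gene and barcode were deposited, with no scaling. The submitters' processing notes list the mm10 build, Seurat 2.3.4, Cell Ranger 2.2.0 and STAR without saying what each did. The sources used here do not give the rule by which barcodes were chosen.

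UMIs were summed per gene symbol. A barcode was kept from 200 genes up if mitochondrial UMIs made up no more than 10% (2106 allogeneic, 7957 syngeneic). No doublets were removed: Scrublet in scanpy 1.11.5 marked 15 allogeneic and 0 syngeneic cells. UMIs were summed per library and cell set, given as CPM, and compared as log2 ratios with exact conditional Poisson intervals, while shares have Clopper-Pearson intervals (scipy 1.17.1). Cells are not replicates, so there is no p-value. A ratio against 0 UMIs used a floor of 3 UMIs per set. Mitochondrial, ribosomal protein and receptor segment genes and the genes of the rule were left out of the genome-wide counts. The ratio code was checked on simulated data.

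The members and the lists were chosen with earlier results of these data known, and the lists of regulatory T and migratory dendritic genes after values were seen here. Genes were named by rule: the 15 highest and 10 lowest by the smaller ratio of both libraries, the 10 highest and 10 lowest between graft types, and up to 4 genes of each list by level. Nr4a3, Egr3, Fos, Zfp36, Zfp36l1, Myc, Il2, Ctla4, Ikzf2, Hspa1a, Hspa1b, Top2a and the genes of the dendritic cells were named after their values were seen. Reads of near-identical or overlapping genes cannot be told apart in these counts.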

Additional observations from a re-analysis of the deposited data

Results flagged for a closer look

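Ccnd2, a cyclin of the first growth phase, differed in direction between the libraries: the log2 ratio of selected cells over T cells with a sum of 0 was -0.51 (allogeneic, 460 against 653 CPM) and 0.16 (syngeneic, 758 against 681 CPM), each with an interval that excludes 0. The medians of all genes tested were 0.38 and 0.13, so the syngeneic value is close to that of genes in general. Id2, an inhibitor of E-protein transcription factors, ran the opposite way, with 0.78 (306 against 179 CPM) in the allogeneic and -0.35 (134 against 172 CPM) in the syngeneic cells. With 1 library per graft type these differences were not tested.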

How the results depend on the processing

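The share of selected cells and the counts of genes at least 2-fold higher moved with the threshold and the depth, while the direction of the named genes moved little. The share was 2.47% of allogeneic and 3.90% of syngeneic T cells at a sum of at least 2, and 0.768% (allogeneic) and 1.17% (syngeneic) at a sum of at least 5. Thinned to 1000 UMIs before the sum was taken, it was 0.464% and 0.344%. The main counts were 635 genes (allogeneic selected cells), 61 (syngeneic) and 133 (allogeneic over syngeneic). They were 36 (syngeneic) and 219 (between graft types) at a sum of at least 2, 1020 (allogeneic) and 63 (between graft types) at a sum of at least 5, and 348, 243 and 14 with the cells thinned to 1000 UMIs after selection. Without cells that held a UMI of other lineages they were 105 (syngeneic) and 65 (between graft types). In Cd4-only cells they were 266, 333 and 30, in Cd8-only cells 36 between graft types, and with a minimum of 20 UMIs and no CPM minimum 1442, 589 and 506. The gene ratios that turned round were Izumo1r in the syngeneic library (-0.017 when thinned, -1.34 in Cd8-only cells from 3 UMIs in the selected ones), Myc in the allogeneic library (-0.087 without other-lineage UMIs), Plac8 in Cd4-only cells (1.82 allogeneic, 0.030 syngeneic) and Fam173a between graft types (0.33 in Cd8-only cells). Of the gene ratios recomputed, 1143 stayed near the reported value, 139 moved and 6 turned round. The causes were not tested. The alternatives without cells carrying dendritic genes and with at least 2 Cd3 UMIs were chosen after seeing the data. No paired analysis was possible because each graft type has 1 library, and for the same reason no library could be left out. The 19 allogeneic cells hold 71807 UMIs, so 1 UMI is 13.9 CPM there, and levels under 41.8 CPM (3 UMIs) cannot be read.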
